A study of Mus musculus with 20 samples.

Results

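The insulin-like growth factor (IGF) genes described here are Igf2, the receptors Igf1r and Igf2r, and the IGF binding proteins Igfbp2, Igfbp3, Igfbp4, Igfbp5, Igfbp6 and Igfbp7. They were listed by family name, with earlier results of these data known. Igfbp5 was already a marker of E2-treated cells in the authors' analysis of the same cells. Of the 10 genes named for the family, 9 were among the 14299 genes of the count table. Igf1 was not analysed here. In the ovarian surface epithelium (OSE) these genes did not move as a family. In the responsive cells, 15 days of estradiol (E2) went with a higher level of Igfbp5 and a lower level of Igfbp6. Igf2, Igfbp4 and Igfbp5 were much higher in responsive cells than in cluster 1 cells, and Igfbp3 stood higher in cluster 1.

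IGF ligands act mainly through Igf1r, a receptor tyrosine kinase that signals to the PI3K and MAPK pathways. Igf2r binds Igf2 without this kinase signalling and carries it to lysosomes. The binding proteins are secreted, hold IGFs in the pericellular space and are cleaved by proteases such as pappalysins, and several have actions of their own on the matrix. Estradiol is known to alter the expression of several binding proteins in reproductive tissues.

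Primary mouse OSE cells, the epithelium that covers the ovary, were kept in a growth medium with an insulin-transferrin-selenite supplement and EGF. After 48 hours without hormones they were cultured for 15 days with 100 nM E2 or with the ethanol vehicle at 0.0002%. Each condition was loaded as a single cell suspension into its own inlet of a Fluidigm C1 chip, control cells into columns 1 to 10 and E2-treated cells into the others. Each column gave 1 library, so p-values cover the spread between libraries and the treatment cannot be told apart from the suspension. The count table held 329 control cells in 10 libraries and 260 E2-treated cells in 9 libraries, and the E2 library of column 13 was not analysed here. Cells were split by the authors' consensus clustering into cluster 1 and the responsive cells. There were 203 control and 218 E2 responsive cells, and 126 control and 42 E2 cells of cluster 1.

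Library totals were 2693258 to 4037847 reads with E2 and 3867791 to 5078339.7 estimated reads in the controls. The median was 143233 reads in control responsive cells, 117809 in E2 responsive cells, 112126 in control cluster 1 cells and 87632 in E2 cluster 1 cells. Libraries shared the barcodes of the 40 capture rows by design. Of 13 OSE markers, 11 had reads in all 4 groups, with summed levels of 4373 to 7191 CPM (counts per 1000000 reads of the sum). Single genes among them went both ways. Krt19 had group means of 26.2 and 21.1 CPM in control and E2 cluster 1, against 407 and 626 CPM in responsive cells. Msln was at 341 and 246 CPM against 41.1 and 20.9 CPM. The count table kept only genes found in at least 10 cells. Defining markers of granulosa cells (Foxl2, Amh, Fshr), endothelium (Cdh5, Tek), leukocytes (Lyz2, Adgre1), muscle (Myh11) and oocytes (Zp3) were not in it. Reads of these genes in fewer cells cannot be told from their absence. Other genes of those lists, except that of oocytes, had reads. Of 5 endothelial markers 2 did, with summed levels of 313 to 756 CPM, of which Pecam1 had group means of 463 to 555 CPM. Of 6 granulosa markers Inha did, with group means of 17.2 to 72.3 CPM, highest in control cluster 1. At most 3 of 5 leukocyte markers did, with sums of 0 to 109.5 CPM and Cd68 lower in cluster 1 (group means 17.9 to 26.7 CPM) than in responsive cells (57.8 to 66.8 CPM). At most 3 of 5 muscle markers did, with Acta2 at a mean of 18.3 CPM in control cluster 1 and at 0 to 3.17 CPM elsewhere. At most 2 of 5 theca markers did, with sums of 0 to 42.2 CPM. None of the 3 oocyte markers was in the count table. Of 6 fibroblast markers, 5 had reads, with summed levels of 1669.8 to 2191 CPM in control and 1684 to 4653 CPM in E2 responsive libraries, and of 2717 to 4394 and 2671 to 10445 CPM in cluster 1. Col1a2 had group means of 1902 and 1971 CPM in control and E2 cluster 1, against 14.7 and 10.3 CPM in responsive cells. Dcn was at 1416 and 2236 CPM against 1242 and 1334 CPM. Col1a1 was lower in cluster 1, at 79.0 and 100.0 CPM against 193 and 135 CPM. So was Col3a1, at 275 and 251 CPM against 559 and 736 CPM. Pdgfra was at 7.98 and 3.70 CPM against 8.38 and 4.88 CPM. The part of these markers in the values below was not tested.

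Unless stated otherwise, levels below are CPM of the summed cells of a library and cluster, scaled with edgeR's TMM factors over all 36 sums. Calls are those of edgeR's quasi-likelihood test, with 2 conditions: Benjamini-Hochberg adjusted p below 0.05, and a log2 fold change past 0.5 in either direction. Errors of fold changes are standard errors (SE). Levels are compared between groups for 1 gene and never between genes.

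Among responsive cells, 141 of 10265 genes tested were called between E2 and control, which is 1.37% of the genes, and 2 of the 8 IGF genes tested were among them. Igfbp5 rose and Igfbp6 fell. Igf1r did not pass the filter on low counts and was not tested there. The library levels of Igf2, Igfbp2, Igfbp3, Igfbp4, Igfbp7 and Igf2r overlapped between the conditions.

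**Figure D1:**
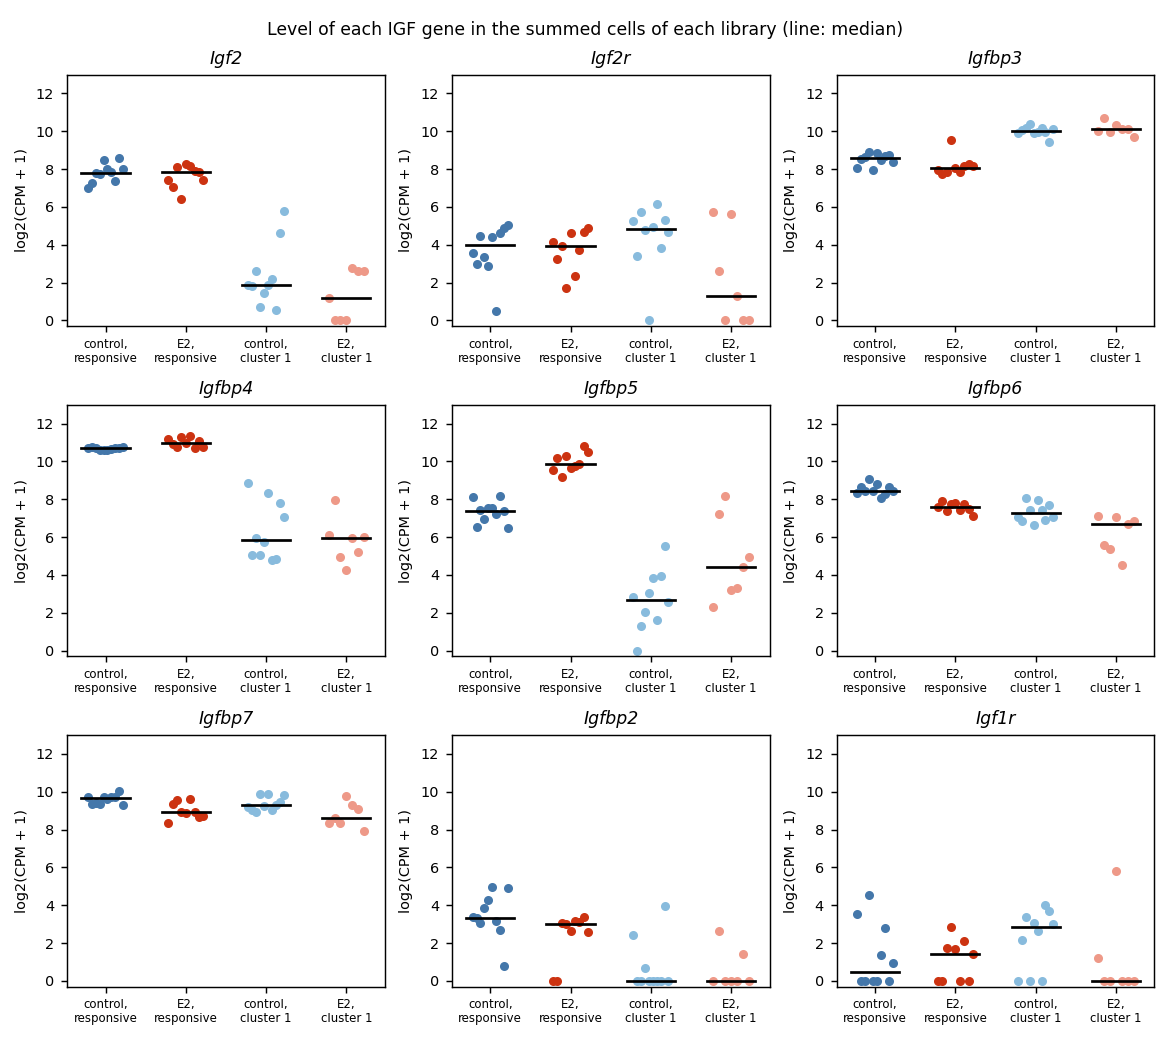
Level of each IGF gene, as log2(CPM + 1), in the summed cells of each library for control and E2 cells of the responsive group and of cluster 1 (10, 9, 10 and 7 libraries, with a line at the median). The Igfbp5 levels of responsive cells lie between 89.0 and 291 CPM in the control libraries and between 577 and 1832 CPM in the E2 libraries, and Igf2, Igfbp4 and Igfbp5 sit lower in cluster 1.

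Igfbp5 encodes a secreted binding protein that also attaches to the extracellular matrix, and lies on chr1:72857932-72874884 of GRCm38, minus strand. In responsive cells its level was 89.0 CPM in the lowest control library, 169 CPM in the median and 291 CPM in the highest. In the E2 libraries it was 577, 929.8 and 1832 CPM. Every E2 library lay above every control library. E2 libraries stood wholly above the controls for 28 of 10265 genes, or 0.273%. The log2 fold change was 2.62 ± 0.23 (SE, 10 and 9 libraries, edgeR, adjusted p = 1.70e-08), and the mean level with E2 was 6.18 times that of the controls. No single cell carried the difference. Without the cell that held the most Igfbp5 reads in each library, the range was 74.3 to 228 CPM without TMM factors in the controls and 490.5 to 1214 with E2.

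Both the number of cells with Igfbp5 reads and the level in those cells were higher with E2. Reads were found in 141 of 203 control responsive cells, which is 69.5% (95% exact interval 62.6 to 75.7), and in 209 of 218 E2 responsive cells, which is 95.9% (92.3 to 98.1). In the cells with a read the median level was 134 CPM in controls and 703 CPM with E2. The mean share over libraries was 69.5% ± 7.88 (SD, n = 10) in controls and 95.3% with E2 (n = 9, 82.4% to 100.0%). The lowest E2 library, at 82.4%, was above the highest control library, at 80.0%. The two-sided exact permutation test over libraries gave p = 1.08e-05, the smallest value it can give, and an adjusted p of 0.00585 over 10265 genes. By this test 223 genes passed, or 2.17%, with a higher share in E2 for 38 and a lower share for 185. Igfbp5 and Igfbp6 were the IGF genes among them. The 95% intervals above are exact binomial over the pooled cells and leave out the spread between libraries.

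Igfbp6 encodes a binding protein with a preference for IGF2 and lies on chr15:102144362-102149511, plus strand. Its level in responsive cells was 270.2 CPM in the lowest control library, 350.2 CPM in the median and 544 CPM in the highest. With E2 it was 138, 191 and 239.8 CPM. The library ranges did not overlap, which held for 15 of 10265 genes with E2 lower, or 0.146%. Igfbp6 fell by 0.96 on the log2 scale with E2 (SE 0.14, 10 and 9 libraries, edgeR, adjusted p = 0.000126), to a mean level 51.6% of the control mean. Most cells kept some reads. The share of cells with a read was 99.1% ± 1.84 (SD, n = 10) in controls and 90.4% ± 6.58 (SD, n = 9) with E2 (exact permutation test over libraries, p = 0.000271, adjusted p = 0.0272). After each cell was thinned to 20000 reads these shares were 95.1% ± 4.06 and 80.0% ± 6.74 (exact permutation test, adjusted p = 0.0163), and those of Igfbp5 were 55.0% ± 10.5 and 88.7% ± 9.14 (adjusted p = 0.0128). With thinned cells 107 of 10265 genes passed, 28 with a higher and 79 with a lower share in E2.

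**Figure D2:**
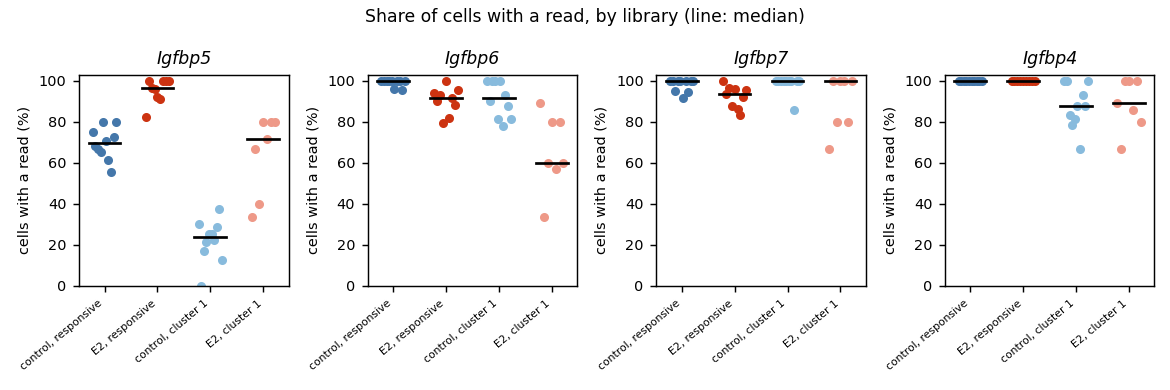
Share of cells with at least 1 read of Igfbp5, Igfbp6, Igfbp7 and Igfbp4, in percent, for each library of the 4 groups, with a line at the median. In responsive cells the E2 libraries lie at 82.4% to 100.0% for Igfbp5, above the controls, and at 79.2% to 100.0% for Igfbp6, overlapping the controls at 95.5% to 100.0%, while Igfbp4 was read in all responsive cells.

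The promoters of Igfbp5 and Igfbp6, the pair called in opposite directions, and of Igfbp4 are shown as the 250 bases before the RefSeq start on GRCm38.p6, 5′ to 3′ on the gene's strand. RefSeq promoters were matched for 10 of 10 family genes, 14 promoters in all. The letters searched on both strands were the palindromic estrogen response element (GGTCA, 3 bases of any kind, TGACC), its single arm GGTCA or TGACC, the AP-1 site TGAGTCA or TGACTCA, the GC box GGGCGG or CCGCCC and the TATA box TATAAA or TTTATA. The single arm lies within the full element. Capitals mark any match.
Igfbp5, chr1:72874866-72875115, minus strand: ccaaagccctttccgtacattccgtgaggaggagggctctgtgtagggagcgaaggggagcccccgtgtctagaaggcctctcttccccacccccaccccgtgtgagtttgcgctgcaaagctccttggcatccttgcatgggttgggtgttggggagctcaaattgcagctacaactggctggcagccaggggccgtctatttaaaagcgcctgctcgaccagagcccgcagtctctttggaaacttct
Igfbp6, chr15:102143936-102144185, plus strand: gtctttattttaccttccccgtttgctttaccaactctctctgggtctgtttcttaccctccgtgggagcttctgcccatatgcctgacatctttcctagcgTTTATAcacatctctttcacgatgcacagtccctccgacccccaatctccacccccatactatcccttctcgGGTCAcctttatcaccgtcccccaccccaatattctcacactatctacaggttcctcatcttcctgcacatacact
Igfbp4, chr11:99040994-99041243, plus strand: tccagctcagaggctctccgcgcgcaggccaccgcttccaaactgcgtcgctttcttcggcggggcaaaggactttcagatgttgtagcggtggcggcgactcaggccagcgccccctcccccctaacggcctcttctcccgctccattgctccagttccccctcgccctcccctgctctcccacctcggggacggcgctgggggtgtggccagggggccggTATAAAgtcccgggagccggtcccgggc
The Igfbp5 window held none of these letters. The Igfbp6 window held 1 single arm, 76 bases before the start, and 1 TATA box match, 148 bases before it, and the GENCODE start of the gene lies 176 bases further downstream. The Igfbp4 window held 1 TATA box, 28 bases before the start. Among 32851 promoter windows of the same length, 0.0639% held the full element, 35.2% a single arm, 4.46% an AP-1 site, 32.7% a GC box and 12.4% a TATA box. A match is a description of the letters and not of binding.

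Igfbp7, also called IGFBP-related protein, binds IGFs weakly and is a matrix protein of vessels and stroma. It lies on chr5:77349240-77408041, minus strand, and overlaps Polr2b on the other strand, and the strand setting of the counting is not given in the sources used here. Control responsive libraries had 636 CPM at the lowest, 806 CPM in the median and 1066 CPM at the highest, against 327, 481 and 779 CPM with E2. Of the 9 E2 libraries, 6 were below all controls. The log2 fold change was -0.56 ± 0.15 (SE, 10 and 9 libraries), and the edgeR adjusted p of 0.0722 missed the threshold. The call depended on the processing. The adjusted p was 0.0196 with DESeq2, 0.0379 with limma-voom and 0.0301 with thinned cells, and edgeR gave 0.0338 without E2 library 14 and 0.0271 without E2 library 17. With the mean over cells of log2(CPM + 1), which moved the median of all genes to -0.183, the log2 difference was -1.15 (limma, adjusted p = 0.000353). Over all alternatives the adjusted p ran from 0.000353 to 0.155 and the log2 fold change from -1.15 to -0.49. The share of cells with a read was 98.1% ± 3.13 (SD, n = 10) in controls and 92.3% ± 5.49 (SD, n = 9) with E2 (exact permutation test, adjusted p = 0.133).

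Igfbp4, a soluble binding protein and the classic substrate of the protease Pappa, lies on chr11:99041244-99054392, plus strand. Every responsive cell had reads of it. The level was close between control libraries, at 1547 CPM in the lowest, 1656 CPM in the median and 1756 CPM in the highest. With E2 it was 1678, 2041 and 2572 CPM, and 7 of 9 E2 libraries lay above all controls. The log2 fold change of 0.33 ± 0.10 (SE) was below the size set for a call, and the edgeR adjusted p was 0.105. The spread between libraries was wider with E2, with an SD of 331 CPM against 69.8 CPM.

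Igfbp3, the main carrier of IGFs in serum, lies on chr11:7206086-7213923, minus strand. Its control responsive libraries had 249.8, 383 and 472 CPM at the lowest, median and highest, and the E2 libraries 213, 266 and 732 CPM. This gave a log2 fold change of -0.29 ± 0.19 (SE, edgeR, adjusted p = 0.712). E2 library 15 decided this value. It stood at 732 CPM while the 8 other E2 libraries lay between 213 and 304 CPM, and without it the log2 fold change was -0.55 (edgeR, adjusted p = 0.0180), which passed both thresholds. The cell of that library with the most Igfbp3 reads held 14.5% of them, so the level did not come from 1 cell. The matrix genes Col3a1 and Dcn also stood apart there, at 1962 CPM against 461 to 720.1 CPM and at 2588 CPM against 829.5 to 1323 CPM. Col1a2, at 6.17 CPM against 1.10 to 42.2 CPM, and Pdgfra, at 1.62 CPM against 0 to 16.6 CPM, did not. Col1a1 was not examined for this library. What set this library apart was not tested.

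Igfbp2, a binding protein with a preference for IGF2, lies on chr1:72824503-72852474, plus strand, and was read in few cells. Reads were found in 32 of 203 control and 20 of 218 E2 responsive cells. Control libraries had 0.750, 9.18 and 30.7 CPM at the lowest, median and highest, and E2 libraries 0, 7.14 and 9.33 CPM. The log2 fold change of -1.24 ± 0.71 (SE, edgeR, adjusted p = 0.620) was not called at this depth.

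Igf2, the ligand, lies on chr7:142650766-142666816, minus strand, and shares its locus with Igf2os on the other strand and with Mir483. In responsive cells it was at 126, 224 and 384 CPM in the lowest, median and highest control library and at 83.4, 233 and 312 CPM with E2. The ranges overlapped almost fully. Igf2 had a log2 fold change of -0.17 ± 0.23 (SE, edgeR, adjusted p = 0.905). Reads were present in 73.9% of control and 71.6% of E2 responsive cells.

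The receptors were sparse. Igf1r, on chr7:67952827-68233668, plus strand, had reads in 10 of 203 control and 9 of 218 E2 responsive cells, with 0 to 22.3 CPM in control libraries (median 0.477) and 0 to 6.17 CPM with E2 (median 1.68). The highest control library took 95.4% of its Igf1r reads from 1 cell, and no difference was detectable at this depth. Igf2r lies on chr17:12682406-12769664, minus strand, and the antisense transcript Airn overlaps it on the other strand. Whether reads of Airn entered the Igf2r counts was not examined. The Igf2r level was 0.398 to 32.1 CPM in control responsive libraries (median 15.4) and 2.27 to 28.6 CPM with E2 (median 14.3). Its log2 fold change was -0.09 ± 0.56 (SE, edgeR, adjusted p = 0.987).

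In cluster 1, 7 of 8340 genes tested were called between E2 and control by edgeR, or 0.0839%, and 622 had an unadjusted p below 0.05. None of the 6 IGF genes tested there was called by edgeR or by DESeq2. The E2 group held 39 cells in 7 libraries, since a library entered with at least 3 cells. Igf2, Igfbp2 and Igf1r did not pass the filter on low counts.

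The Igfbp5 level in cluster 1 was 0, 5.47 and 45.9 CPM in the lowest, median and highest control library and 3.88, 20.3 and 288 CPM with E2. The log2 fold change was 2.91 ± 0.93 (SE, 10 and 7 libraries), close to that of responsive cells, but the edgeR adjusted p was 0.341. A pair of E2 libraries lay above all controls, and each rested on 1 cell, which held 99.2% of the Igfbp5 reads in library 16 and 89.7% in library 15. Without library 16 the log2 fold change was 1.88 (edgeR, adjusted p = 0.649). Its leading cell had 132 of the group's 204 reads, lay at pseudotime 43.3, had no reads of the cluster 1 gene Col1a2, and was among the responsive cells in the deposited labels for 3 clusters, though not by k-means.

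The share of cluster 1 cells with an Igfbp5 read does not depend on the reads of such cells. Control libraries had a mean share of 21.9% ± 10.4 (SD, n = 10), ranging from 0% to 37.5%, and E2 libraries one of 64.5% ± 19.8 (SD, n = 7), ranging from 33.3% to 80.0%. The exact permutation test over libraries, added after seeing the data, gave p = 0.000103 and an adjusted p of 0.107, with 0 of 8340 genes passing (0%) and 826 at an unadjusted p below 0.05. In cells with a read the median level was 18.3 CPM in controls and 17.4 CPM with E2. More of the E2 cells thus had a read, and the difference missed the threshold over all genes. Many of these cells held few reads. E2 library 18 had 6 reads in 5 cells, and control library 7 had 4 reads in 4 cells. The median level in cells with a read is then limited by depth and cannot show whether the level was alike. Thinned to 20000 reads the shares were 6.66% ± 8.48 and 33.2% ± 22.7 (exact permutation test, adjusted p = 0.418).

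Igfbp6 was at 98.7, 152 and 264 CPM in the lowest, median and highest control library of cluster 1 and at 22.1, 101 and 137 CPM with E2 (log2 fold change -0.92 ± 0.39, SE, edgeR adjusted p = 0.577). Igfbp7 was at 491, 619 and 948 CPM against 241, 391 and 873 CPM (-0.48 ± 0.25, adjusted p = 0.697). Both estimates had the sign and about the size of those in responsive cells. Igfbp3 was at 699, 1039 and 1316 CPM against 834, 1094 and 1636 CPM (log2 fold change 0.17 ± 0.17, edgeR adjusted p = 0.911), and Igfbp4 at 26.8, 56.8 and 466 CPM against 18.1, 61.8 and 245 CPM (-0.89 ± 0.65, adjusted p = 0.838). Igf2r was at 0, 27.7 and 70.2 CPM against 0, 1.47 and 53.1 CPM (-0.88 ± 1.05, adjusted p = 0.945).

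Whether the E2 difference itself differed between the clusters was tested by an interaction term. Of 11398 genes 21 were called, or 0.184%, and none of the 9 IGF genes was, by edgeR or by DESeq2, with 1244 genes at an unadjusted edgeR p below 0.05. For Igfbp5 the interaction was 0.23 ± 0.77 and for Igfbp6 0.00 ± 0.42 on the log2 scale (SE, edgeR, adjusted p = 0.965 and 1.00). The largest distance from 0 relative to its error was that of Igfbp4, a gene with 56.0% of its control cluster 1 reads in 4 of 126 cells. It stood at -1.32 ± 0.61 (edgeR, adjusted p = 0.398). An E2 difference in responsive cells that was not called in cluster 1 is therefore not shown to differ between them. The median interaction over all genes was -0.18. With the library as a replicate block, edgeR called 0 of 11398 genes, with 902 at an unadjusted p below 0.05.

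**Figure D3:**
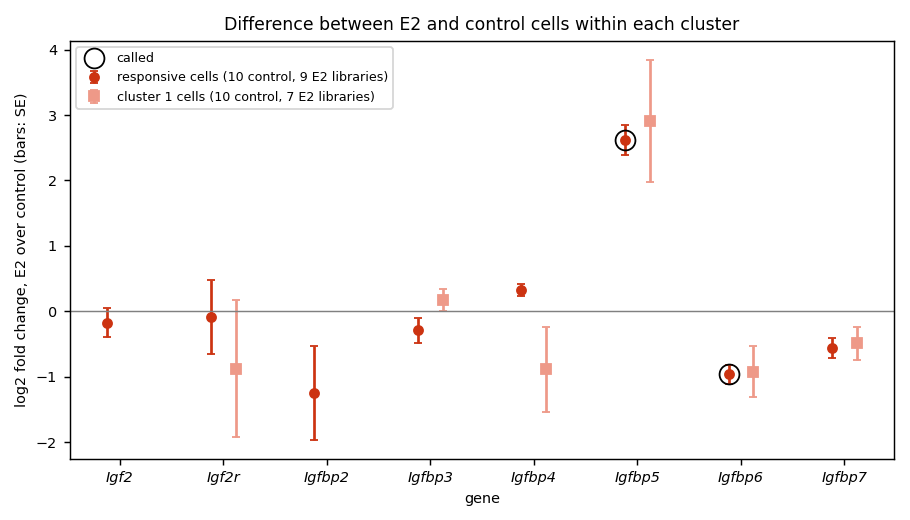
Log2 fold change of E2 over control with its standard error for each IGF gene tested, in responsive cells (circles) and in cluster 1 cells (squares), with a ring around genes that were called. Igfbp5 at 2.62 and Igfbp6 at -0.96 are ringed in responsive cells, and the cluster 1 estimates have wider errors.

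Over all cells of a library, with levels in CPM without TMM factors, 177 of 10945 genes were called by edgeR, or 1.62%, and 3 of 9 IGF genes were among them. Igfbp5 rose from 56.9, 109 and 202 CPM in the lowest, median and highest control library to 504, 745 and 1439 CPM with E2 (log2 fold change 3.01 ± 0.24, edgeR adjusted p = 2.49e-09). Igfbp4 rose from 856, 1131 and 1357 CPM to 1353, 1646 and 2122 CPM (0.68 ± 0.11, adjusted p = 0.000537). Igfbp6 fell from 226, 299 and 412 CPM to 139, 166 and 221 CPM (-0.74 ± 0.14, adjusted p = 0.00351). For Igfbp4 the difference was 0.33 within responsive cells, and the libraries differed in their makeup. All 3 genes were lower in cluster 1. That cluster made up 38.1% ± 9.57 (SD, n = 10) of control libraries and 16.5% ± 9.22 (SD, n = 9) of E2 libraries. The part of this makeup in the 3 calls over all cells was not tested.

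Because the clustering used the expression of these same genes among others, levels in cluster 1 and in responsive cells are given as a description without a test. By the same edgeR thresholds 15.9% of 9826 genes would be called between them. The fit held the condition but no term for the library, so the errors below leave out the pairing of both sums of a library. Igf2, Igfbp4, Igfbp5 and Igfbp6 were lower, and Igfbp3 higher, in cluster 1 in each of the 17 libraries with both kinds of cell. The differences of cluster 1 from responsive cells on the log2 scale were -5.05 ± 0.46 (SE) for Igf2, -4.10 ± 0.35 for Igfbp4 and -4.04 ± 0.43 for Igfbp5. They were -1.14 ± 0.18 for Igfbp6, 1.68 ± 0.14 for Igfbp3, -0.15 ± 0.14 for Igfbp7 and 0.58 ± 0.57 for Igf2r. Igfbp2 stood at -2.82 ± 0.77 and had reads in 3 of 126 control and 2 of 42 E2 cluster 1 cells.

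The ligand Igf2 was close to its limit of detection in cluster 1. Control cluster 1 libraries had 0.489, 2.63 and 54.0 CPM at the lowest, median and highest, and E2 cluster 1 libraries 0, 1.29 and 5.88 CPM, with 3 of 7 libraries at 0. The group total of E2 cluster 1 cells was 11.0 reads, where 3 reads correspond to 0.802 CPM. Reads were found in 22.2% of control cluster 1 cells (95% exact interval 15.3 to 30.5), while 73.9% of the control responsive cells had them.

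A few cells of control cluster 1 held most of its Igf2 and Igfbp4 reads. The 4 cells at a pseudotime above 20, of 126, held 76.0% of the Igf2 reads, 56.0% of the Igfbp4 reads and 32.8% of the Igfbp5 reads, and 4.81% of the Igfbp6 reads. All 4 were grouped with the responsive cells by k-means without imputation, and 2 of them by the deposited labels for 3 clusters. The low levels of Igf2 and Igfbp4 in cluster 1 were thus lower still in the rest of the cluster. Without the cell with the most reads in each library, control cluster 1 had 25.4 to 115 CPM without TMM factors for Igfbp4 and 0 to 4.77 for Igf2.

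Igfbp3 was read in all 126 control and all 42 E2 cells of cluster 1. Its control libraries had 699, 1039 and 1316 CPM in cluster 1 and 249.8, 383 and 472 CPM in responsive cells. In E2 libraries they were 834, 1094 and 1636 CPM against 213, 266 and 732 CPM. The mean in cluster 1 was 2.78 times the responsive mean in controls and 3.69 times with E2.

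Pseudotime, the order that monocle gave the cells, runs from cluster 1 to the responsive cells and was built from the same expression, so its relation to these genes is likewise a description. Cells of each condition were split into 6 bins of nearly equal number, and levels in bins are CPM without TMM factors. In controls Igfbp4 went from 54.3 and 43.7 CPM in the first pair of bins, both of cluster 1 cells, to 1134, 1459, 1556 and 1941 CPM in the next bins. With E2 it went from 105 CPM to 1666, 1907, 1924, 2105 and 2103 CPM. The highest Igfbp4 levels of both conditions were thus in the later responsive cells.

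Igfbp5 with E2 stood at 30.4 CPM in the first bin and then at 544, 798, 1321, 1584 and 975 CPM. A single cell held 23.7% of the reads of the fifth bin and 11.6% of those of the fourth, so the order of these bins is not firm, and in a split into 4 bins the values were 252, 696, 1537 and 1057 CPM. In controls the values were 5.13, 7.70, 104, 198, 138 and 182 CPM. Igfbp7 with E2 went the other way within the responsive cells, at 531, 753, 702, 371, 279 and 419 CPM, while the control bins stayed between 599 and 840.1 CPM. Igfbp3 dropped from 1205 CPM to 346 CPM between the first and the last bin in controls and from 1145 CPM to 293 CPM with E2.

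**Figure D4:**
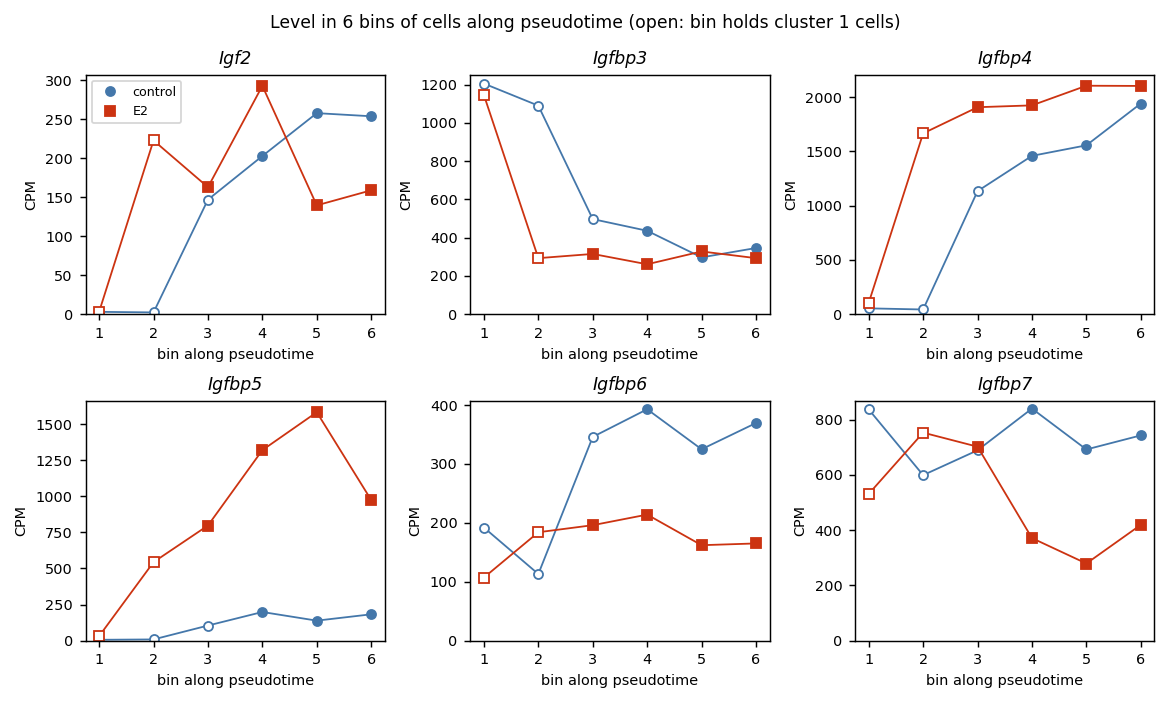
Level in CPM of 6 IGF genes in 6 bins of cells in order of pseudotime, for control (circles) and E2 (squares), with open symbols for bins that hold cluster 1 cells. With E2, Igfbp5 stands at 1321 and 1584 CPM in the fourth and the fifth bin, the latter with 23.7% of its reads from 1 cell, and Igfbp7 at 371 and 279 CPM, while Igfbp4 is lowest and Igfbp3 highest in the first bins of both conditions.

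Within responsive cells each library was split at the median pseudotime of its condition. With E2 the Igfbp5 level was 769 ± 333 CPM (SD, n = 9) in earlier and 1171 ± 501 CPM in later cells, and it was higher in the later cells in 8 of 9 libraries. The Igfbp7 level was 664 ± 236 CPM in earlier and 369 ± 119 CPM in later cells, and lower in the later cells in 8 of 9 libraries. In controls the later cells were higher in 5 of 10 libraries for each of these genes. In most E2 libraries Igfbp5 was thus higher and Igfbp7 lower in the later cells, while control libraries were split evenly, and the difference between the conditions was not tested.

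The control order had other features. Igf2r was at 7.01 ± 6.05 CPM (SD, n = 10) in earlier and 25.0 ± 15.7 CPM in later control cells, higher in 10 of 10 libraries, but with E2 in 5 of 9. Igfbp4 was higher in later cells in 8 of 10 control libraries, at 1352 ± 289 against 1820.2 ± 274 CPM, and in 6 of 9 E2 libraries. Igfbp2 in E2 libraries was at 2.02 ± 2.61 CPM in earlier and 7.57 ± 6.03 CPM in later cells, higher in 6 and lower in 1.

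**Figure D5:**
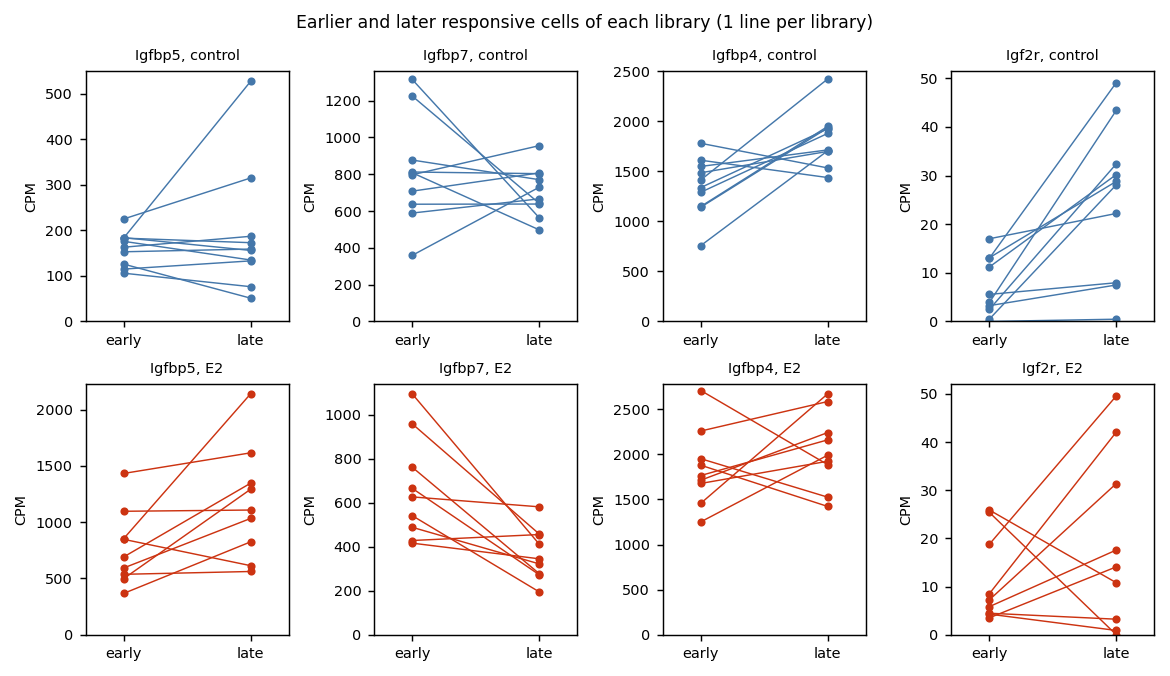
Level in CPM of Igfbp5, Igfbp7, Igfbp4 and Igf2r in the earlier and later responsive cells of each library, split at the median pseudotime of the condition, with 1 line per library. With E2 the lines rise for Igfbp5 and drop for Igfbp7 in 8 of 9 libraries, and in controls they rise for Igf2r in 10 of 10.

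Over single cells the relations were weak. Spearman's rho between pseudotime and level was 0.295 for Igfbp5, -0.206 for Igfbp7 and 0.167 for Igfbp4 over the 218 E2 responsive cells, and 0.122 for the reads per cell. In the deposited imputed values the same relations were 0.713, -0.274 and 0.667, and imputation shares values between similar cells. Over the 42 E2 cluster 1 cells rho was -0.678 for Igfbp3 and -0.410 for the reads per cell, and over the 126 control cluster 1 cells -0.144 for Igfbp3.

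Genes whose level ran most closely with each IGF gene were ranked by Pearson's r of log2(CPM + 1) over library sums, among 8948 genes. The sums share their conditions and clusters, so r is a description. Over the 19 responsive sums Igfbp5 ran with Tacc1 at 0.926, Creg1 at 0.907 and Rars at 0.885, and Igfbp6 with Sparc at 0.872, Mgp at 0.849 and Actb at 0.848. Over all 36 sums, Igf2 ran with Crip1 at 0.950, Fxyd1 at 0.949 and Cox6b2 at 0.949, and Igfbp4 with Fn1 at 0.959, Emilin2 at 0.951 and Krt19 at 0.950. Igfbp3 ran with the complement genes C1s1 at 0.943 and C1s2 at 0.907 and with Cald1 at 0.907. Igfbp5 ran with Creg1 at 0.929, Igfbp6 with Spats2l at 0.826 and Igfbp2 with Celf2 at 0.796. The highest r was 0.750 for Igfbp7, with Synpo, and 0.741 for Igf2r, with Mcm3ap.

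Of the wider pathway, 50 genes of IGF receptor signalling and 22 IGF binding protein proteases with their inhibitors were listed. A further list held 14 genes with an IGF binding domain or partners of the IGF complex. In the table were 47, 11 and 6 of them, with Htra1 counted both as a protease and as a domain gene. In responsive cells 41, 7 and 5 were tested and none was called by edgeR, beside 1.37% of all genes. Their median log2 fold changes were 0.03, -0.27 and -0.33, beside 0.02 over all genes tested. Nor was any called in cluster 1, where 37, 9 and 5 were tested, or by the interaction, beside 0.0839% and 0.184% of all genes. At such shares few calls or none would be expected among so few genes. The lack of calls does not show an unchanged pathway. At an unadjusted level the smallest p-values in responsive cells were those of Insr, the insulin receptor, and Timp1, a metalloprotease inhibitor. Insr was at 0, 5.02 and 13.5 CPM in controls and 10.0, 22.3 and 46.3 CPM with E2 (log2 fold change 2.07 ± 0.57, edgeR adjusted p = 0.0713). Timp1 was at 128, 252 and 361 CPM against 84.4, 132 and 230.4 CPM (-0.74 ± 0.20, adjusted p = 0.0722).

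Over all cells of a library, edgeR called 1 of 41 signalling genes tested, 1 of 9 proteases and inhibitors and 1 of 6 genes with the binding domain, beside 1.62% of all genes. Socs2, a feedback inhibitor of cytokine and growth hormone signalling, rose from 3.98, 9.61 and 16.4 CPM in the lowest, median and highest control library to 8.91, 30.5 and 49.2 CPM (log2 fold change 1.68 ± 0.37, edgeR adjusted p = 0.0141). Timp1 fell from 146, 239 and 317 CPM to 84.4, 141 and 227 CPM (-0.70 ± 0.17, adjusted p = 0.0339). Ccn2, a matricellular protein with an IGF binding domain, fell from 18.3, 54.8 and 105 CPM to 6.65, 17.7 and 50.6 CPM (-1.44 ± 0.37, adjusted p = 0.0410). Within responsive cells the log2 fold changes were close to these, at 1.40 ± 0.44 for Socs2 and -1.25 ± 0.39 for Ccn2, and the edgeR adjusted p of 0.142 for each missed the threshold.

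Several proteases that cleave binding proteins stood higher in cluster 1, again as a description with errors that leave out the pairing by library. Pappa2, a pappalysin that cleaves Igfbp3 and Igfbp5, was at 31.2, 132 and 215 CPM in the lowest, median and highest control cluster 1 library and at 0, 2.58 and 10.8 CPM in control responsive cells (log2 difference 5.56 ± 0.52, SE). Mmp2, a metalloprotease, was at 88.5, 262 and 397 CPM against 0.584, 1.17 and 3.18 CPM (7.04 ± 0.45). Htra1, a serine protease with an IGF binding domain, was at 423, 682 and 897 CPM against 236, 311 and 408 CPM (1.41 ± 0.16). Ide, which degrades insulin, was at 182, 358 and 565 CPM against 114, 188 and 315 CPM (1.04 ± 0.16). Among genes with the IGF binding domain, Ccn1 differed by 1.45 ± 0.26, Ccn4 by 1.17 ± 0.30, Ccn2 by 1.03 ± 0.33 and Crim1 by 0.75 ± 0.27, all higher in cluster 1. Of the signalling genes named by the same thresholds, Rictor stood at -1.27 ± 0.45 and Gsk3b at -0.97 ± 0.34.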

How the data were processed

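Gene expression was measured in single mouse OSE cells on a Fluidigm C1 HT chip by 3′ sequencing. The authors quantified transcripts with kallisto 0.44.0 (per the labels, build GRCm38), summed them to genes, and kept capture sites with 1 live cell and genes found in at least 10 cells. The deposited table gives estimated counts for each cell by gene, not normalized, and 68.8% of the values above 0 were whole numbers. The deposited log2 values (base not stated, taken as 2) were scaled by scran size factors and imputed with MAGIC, and served for 1 alternative. The deposited metadata hold the percent of mitochondrial reads, a pseudotime score from monocle and SC3 cluster labels made on imputed values. The labels for 2 clusters put cluster 1 and the responsive cells apart here.

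Counts were summed per library and cluster (at least 3 cells), rounded, and fitted with edgeR 4.0.16 in R 4.3.3 over all genes (filterByExpr, TMM, quasi-likelihood, Benjamini-Hochberg). SE was taken as the size of the log2 fold change over the root of its F statistic. Levels along pseudotime, over all cells and without a leading cell are CPM without TMM. Shares were compared by two-sided exact permutation over libraries (Python 3.11.15, scipy 1.17.1). The tests were run on simulated data first. Levels described per library are the lowest, the median and the highest. Median depth was 120932 reads per cell, and 3 reads of a group's total set the limit of detection. No molecular identifiers were used, so read counts include amplification noise. Exact intervals of shares are binomial over pooled cells and leave out the spread between libraries. Replicates are chip columns. Genes were named by identifier from GENCODE M21, and 14135 of 14299 matched. All family genes are named, as are pathway genes called in a fit, at most 10 per fit by size. For the clusters the thresholds only chose which genes to name. Insr and, within responsive cells, Timp1, Socs2 and Ccn2 were singled out after their values were seen, as were the fibroblast list genes given for library 15.

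The family genes, lists and tests were chosen with earlier results of these data known. Alternatives were DESeq2 1.42.0, limma-voom 3.58.1, other size factors, no filter, thinned cells, at least 5 cells per sum, other cluster labels, means over cells of log2(CPM + 1), a replicate block of the library and leaving out each library. Leaving out each library's leading cell and the share test in cluster 1 were added after seeing the data.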

Additional observations from a re-analysis of the deposited data

Results flagged for a closer look

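In 9 of 36 gene and group pairs examined, 1 library stood apart from the others by Dixon's test, where chance would mark about 1 in 20. The library levels are not normally distributed at low counts, and what set these libraries apart was not tested.

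In responsive cells, E2 library 15 had 732 CPM of Igfbp3 against 213 to 304 CPM in the others, with 14.5% of its reads from 1 cell. Control library 9 had 1066 CPM of Igfbp7 against 636 to 844 CPM, with 23.8% from 1 cell, and control library 4 had 22.3 CPM of Igf1r against 0 to 10.4 CPM, with 95.4% from 1 cell.

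In control cluster 1 cells, library 10 had 54.0 CPM of Igf2 against 0.489 to 23.9 CPM, nearly all of it from 1 cell. Library 9 had 14.7 CPM of Igfbp2 against 0 to 4.35 CPM, all from 1 cell, and 45.9 CPM of Igfbp5 against 0 to 14.7 CPM, with 58.0% from 1 cell. In E2 cluster 1 cells, library 17 had 54.3 CPM of Igf1r against 0 to 1.29 CPM and library 15 had 5.21 CPM of Igfbp2 against 0 to 1.69 CPM, each from 1 cell. Library 15 also had 245 CPM of Igfbp4 against 18.1 to 68.6 CPM, with 70.3% from 1 cell.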

How the results depend on the processing

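Leaving out each library in turn left 2 to 3 IGF genes called in responsive cells, with 107 to 141 genes called in all, and 0 to 0 in cluster 1, with 1 to 9 genes called in all. The third gene was Igfbp7 without E2 library 14 or 17, and Igfbp3 without E2 library 15. Over all cells, the mean over cells of log2(CPM + 1) called 5 IGF genes and not 3, adding Igfbp3 and Igfbp7. In responsive cells that setting called 82 genes higher and 316 lower with E2, against 87 and 54, and moved the median of all genes to -0.183. There the log2 differences of Igfbp5, Igfbp6 and Igfbp7 were 3.96, -1.62 and -1.15, against 2.62, -0.96 and -0.56. DESeq2 called more genes in all: 237 and not 141 in responsive cells, 48 and not 7 in cluster 1, 319 and not 177 over all cells and 107 and not 21 by the interaction. The mean over cells called 398 in responsive cells and 527 over all cells. Without a filter on low counts 1 gene was called in cluster 1. The interaction gave 13 with limma-voom, 5 with thinned cells, 0 with the block and, with RLE size factors, 7 higher and 15 lower against 2 and 19. Between the clusters limma-voom gave 2437 and not 1567. Directions turned for values that were not called. In responsive cells the log2 fold change of Igf2r was 0.00 with limma-voom, and lay between -0.26 without library 20 and 0.08 without library 10, being above 0 also without 9 and 17 (both 0.03) and 15 (0.06). In cluster 1, that of Igfbp4 was 0.70 with k-means labels and its share difference -6.60 points with thinned cells. The interaction turned with limma-voom and with the replicate block to -0.47 and -3.50 for Igf1r, 2.67 and 1.75 for Igfbp2, -0.50 and -0.58 for Igfbp5 and -0.09 and -0.11 for Igfbp6, and with thinned cells to -0.21 for Igfbp7. With the block, the difference of Igf2r between the clusters was -0.01. The cause was not tested. The block was the library, which both clusters share, and it changed no other IGF call. Control and E2 libraries share no number. Sums of at least 5 cells gave no new value over all cells, since each library held more. Depth limits Igf1r, Igf2r and Igfbp2 in all groups, and Igf2 and Igfbp5 in cluster 1.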
